A study of Homo sapiens with 4 samples.

Results

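The snoRNA host genes and a few related long noncoding RNAs (lncRNAs) were examined in imatinib-sensitive and imatinib-resistant leukaemia cells. They are all genes of the deposited expression table whose symbol is SNHG followed by a number, together with GAS5, ZFAS1, DANCR, EPB41L4A-AS1, MIR17HG, NEAT1 and MALAT1. This rule gave 28 of the 32673 genes listed, and it used no measured value. TF1 is a human erythroleukaemia cell line that grows with the cytokine GM-CSF. The sensitive TF1-BA cells are TF1 cells in which a retrovirus expresses BCR-ABL, the fused tyrosine kinase that imatinib inhibits. The resistant TF1-BAR cells are a derivative of TF1-BA obtained by months of continuous imatinib, so the BCR-ABL retrovirus is present in both groups. By the labels, both were grown with GM-CSF at 2 ng/ml, and imatinib at 2 µM was added to the TF1-BAR culture only. The study's methods give a higher GM-CSF concentration than the labels. Whether imatinib was still in the medium at harvest is not given in the sources used here, and drug exposure and resistance cannot be told apart in this design. RNA was sequenced in 2 libraries of each line (replicates 1 and 2). Titles of the resistant libraries read VECTOR, although another label of the same libraries gives TF1-BAR. Each group is 1 cell line, and nothing says that its libraries came from separate cultures, so p-values measure the spread between these libraries.

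A host gene is transcribed and spliced like a messenger RNA, and its introns carry small nucleolar RNAs (snoRNAs) that are trimmed out and packed with proteins. C/D snoRNAs guide methylation and H/ACA snoRNAs guide pseudouridine formation, mostly on ribosomal RNA, and the related scaRNAs do the same on spliceosomal RNA in Cajal bodies. Many host transcripts begin with a run of C and T, as the messenger RNAs of ribosomal proteins do (the TOP motif), and many spliced host RNAs are cleared by nonsense-mediated decay when they are translated. MIR17HG is the host of the miR-17-92 cluster of microRNAs, which is active in many leukaemias and lymphomas. NEAT1 builds nuclear paraspeckles and MALAT1 is kept in nuclear speckles.

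MIR17HG showed the largest increase of the group, and the microRNAs that it carries are therefore shown. The gene lies on the plus strand of chromosome 13 (GRCh38 chr13:91347820-91354579 in the deposited table) and encloses 6 microRNA hairpins with 12 mature microRNAs in RefSeq (GRCh38.p14). The main mature form of each hairpin is printed from 5′ to 3′, with capitals for the seed, bases 2 to 8, that pairs with target messenger RNAs.
hsa-miR-17-5p: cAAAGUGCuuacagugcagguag
hsa-miR-20a-5p: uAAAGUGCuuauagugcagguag
hsa-miR-18a-5p: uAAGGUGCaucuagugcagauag
hsa-miR-19a-3p: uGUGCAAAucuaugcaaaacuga
hsa-miR-19b-3p: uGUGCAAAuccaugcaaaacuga
hsa-miR-92a-3p: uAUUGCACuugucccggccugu
These 6 microRNAs have 4 different seeds. miR-17-5p shares its seed with miR-20a-5p and miR-19a-3p shares its seed with miR-19b-3p, whereas miR-18a-5p and miR-92a-3p each have a seed of their own. The libraries measured the long host transcript, and the levels of the mature microRNAs were not analysed here.

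Expression is given as FPKM, read pairs (fragments) scaled to the length of the gene and to the size of the library. Comparison of this level between genes depends on the length assigned to each gene. In the 4 libraries, 15465497 to 18042299 fragments were recovered from the FPKM values, and FPKM values below are given for replicate 1 and then replicate 2. Replicates of a line correlated at r = 0.983 (TF1-BA) and 0.979 (TF1-BAR) on the log2 scale across genes, and libraries of different lines at 0.946 to 0.956. All 12 TF-1 cell markers (among them CD34, CD33, KIT, receptors of GM-CSF, interleukin-3 and erythropoietin, GATA1, TAL1 and fetal globins) were above the level filter, with summed levels of 316 and 316 FPKM in TF1-BA and 408 and 435 in TF1-BAR. Of these, 5 were higher in TF1-BAR with an adjusted p under 0.05, and CD34 and KIT were among those that also passed the fold threshold. Stromal and epithelial markers were at or under 0.429 FPKM in every library. The lymphoid markers summed to 20.5 and 22.0 FPKM in TF1-BA and to 6.67 and 7.35 in TF1-BAR, nearly all of it from CD3D, while CD3E had 0 or 1 fragment in each library. Genes of the mitochondrial genome took 29.5% and 29.0% of all FPKM in TF1-BA and 24.5% and 22.9% in TF1-BAR, and their part in the differences below was not tested.

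**Figure D1:**
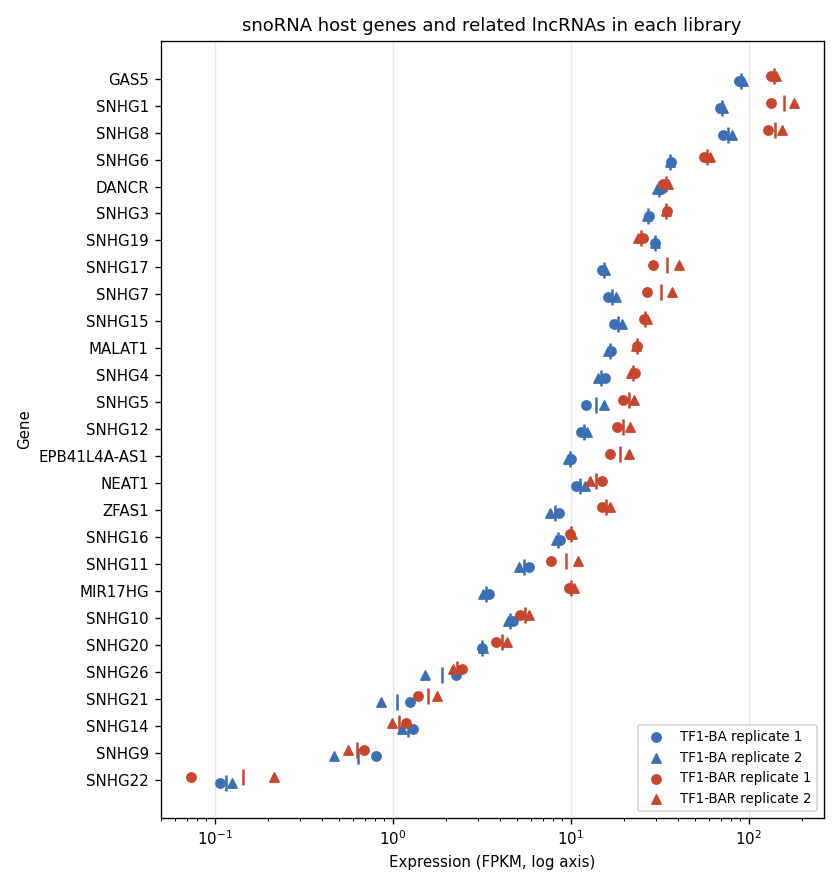
Expression of the snoRNA host genes and related lncRNAs in FPKM (horizontal axis, log scale) in each of the 4 libraries, with genes ordered by mean level. Circles are replicate 1 and triangles replicate 2 of TF1-BA (blue) and TF1-BAR (red), upright bars are group means, and SNHG18, which is 0 in every library, is left out. The red symbols lie to the right of the blue ones in 22 of the 26 tested genes, with SNHG19 the opposite way.

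The host genes were mostly higher in the resistant cells. Expression was compared with limma on log2(FPKM + 0.5), and log2 fold changes below are TF1-BAR over TF1-BA on that scale. It was tested for the 26 genes with a mean of at least 0.5 FPKM over the 4 libraries, with p-values adjusted over all 15519 genes tested (Benjamini-Hochberg). At an adjusted p under 0.05, 16 of the 26 were higher in TF1-BAR (61.5%), against 16.3% of all genes tested. SNHG19 alone was lower at that threshold, against 10.5% of all genes. The remaining 9 did not pass. MIR17HG, SNHG1 and SNHG17 also had a log2 fold change of at least 1, as did 3.05% of all genes in that direction. The median log2 fold change was 0.54 over the 26 genes, 0.22 over the 1906 other genes of the same lncRNA biotypes and 0.07 over all genes tested. Of those other lncRNA genes, 17.0% were higher at an adjusted p under 0.05 and 5.46% passed the fold threshold as well.

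Both TF1-BAR libraries lay above both TF1-BA libraries in 22 of the 26 genes (84.6%), against 40.9% of all genes tested and 45.0% of the other lncRNA genes. SNHG19 lay below in both, as did 28.4% of all genes, and SNHG26, SNHG9 and SNHG14 had overlapping groups. The summed level of the 28 genes was 522 and 538 FPKM in TF1-BA and 801 and 924 FPKM in TF1-BAR. As shares of the fragments on listed genes, they took 0.182% and 0.187% of each sensitive library and 0.276% and 0.309% of each resistant library. With 2 libraries against 2, an exact permutation test of a single value cannot go below p = 0.333, so no such p is given for these sums. Fewer cells of a kind and less RNA per cell cannot be told apart in bulk libraries such as these.

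**Figure D2:**
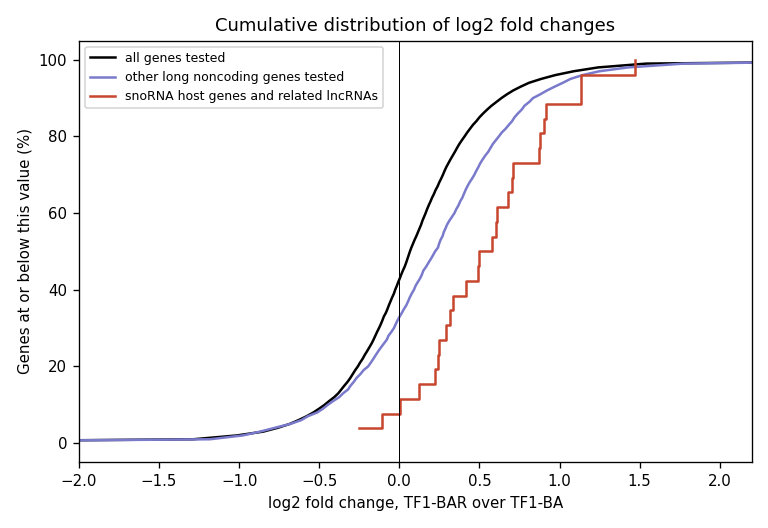
Cumulative distribution of log2 fold changes (TF1-BAR over TF1-BA, horizontal axis) as the percentage of genes at or below each value (vertical axis). The 26 tested snoRNA host genes and related lncRNAs (red steps, median 0.54) lie to the right of the 1906 other lncRNA genes (violet, median 0.22) and of all 15519 genes tested (black, median 0.07) over most of the range.

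MIR17HG was expressed at 3.48 and 3.20 FPKM in TF1-BA and at 9.77 and 10.5 FPKM in TF1-BAR. Its level thus rose 3.03-fold between the group means, from 3.34 ± 0.193 to 10.1 ± 0.495 FPKM (SD, n = 2 each), and the libraries of a line lay close together. The log2 fold change was 1.47 (SE 0.0873, limma adjusted p = 0.00337), and it rested on 173 to 588 fragments per library. Over the other genes of chromosome 13 the median log2 fold change was 0.001.

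SNHG1 carries 8 C/D snoRNAs (SNORD22 and SNORD25 to SNORD31) on chromosome 11 (GRCh38 chr11:62851988-62855914, minus strand). It was among the most abundant of the group, at 69.4 and 71.6 FPKM in TF1-BA and 134 and 179 FPKM in TF1-BAR. The log2 fold change was 1.13 (SE 0.143, limma adjusted p = 0.00987). SNHG1 rose in both TF1-BAR libraries, which differed from each other by 1.34-fold. SLC3A2, a chain of amino acid transporters whose gene starts beside SNHG1 on the other strand, had a log2 fold change of -0.18 (adjusted p = 0.119).

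SNHG17 carries 4 H/ACA snoRNAs (SNORA71A to SNORA71D) on chromosome 20 (GRCh38 chr20:38420588-38435353, minus strand). Its levels were 15.1 and 15.7 FPKM in TF1-BA and 29.1 and 40.8 FPKM in TF1-BAR, a log2 fold change of 1.13 (SE 0.166, limma adjusted p = 0.0125). The TF1-BAR libraries were again apart, by 1.4-fold, and both lay above TF1-BA. Chromosome 20 as a whole was higher in TF1-BAR. The median log2 fold change of its 437 other tested genes was 0.39, and 46.5% of them were higher at an adjusted p under 0.05, as against 16.3% of all genes. The change of SNHG17 exceeded that median by 0.75, and 7.32% of the other genes of chromosome 20 rose past both thresholds.

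The calls at the fold threshold depended on single libraries. SNHG1 and SNHG17 fell below it without TF1-BAR replicate 2 (log2 fold changes of 0.92 and 0.89). Without TF1-BA replicate 1, MIR17HG was the only gene of the 26 with an adjusted p under 0.05 (0.0489). Without TF1-BA replicate 2 none passed by limma, although 15 were higher at an unadjusted p under 0.05, and limma voom on recovered fragments with all libraries had 17 higher at an adjusted p under 0.05. Without TF1-BA replicate 2, 42 of all 15519 genes passed, and the adjusted p of MIR17HG was 0.0527. Without TF1-BAR replicate 1, 6 genes passed both thresholds, with EPB41L4A-AS1, SNHG7 and SNHG8 added.

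Of the other hosts of C/D snoRNAs, ZFAS1, SNHG6 and SNHG5 rose by less. ZFAS1 (SNORD12, SNORD12B and SNORD12C) stood at 8.60 and 7.70 FPKM in TF1-BA and at 15.0 and 16.6 FPKM in TF1-BAR, with a log2 fold change of 0.92 (adjusted p = 0.00681). It lies on chromosome 20, whose median is 0.53 lower. SNHG6 (SNORD87) had 36.4 and 36.2 FPKM in TF1-BA and 56.1 and 61.0 FPKM in TF1-BAR, with a log2 fold change of 0.68 (adjusted p = 0.0067). Replicates of both genes lay close together in each line. SNHG5 (SNORD50A and SNORD50B) showed a wider spread in TF1-BA, at 12.2 and 15.4 FPKM, against 19.8 and 22.6 FPKM in TF1-BAR, with a log2 fold change of 0.61 (adjusted p = 0.0324), a call lost without the filter, without the trend and whichever library was left out. SNHG16 (SNORD1A, SNORD1B and SNORD1C) had 8.73 and 8.31 FPKM in TF1-BA and 9.87 and 10.2 FPKM in TF1-BAR, with a log2 fold change of 0.22 (adjusted p = 0.0841), and it passed with FPKM rescaled to TPM (adjusted p = 0.0447). SNHG26 (SNORD93) was low, at 1.53 to 2.44 FPKM, and its groups overlapped (log2 fold change 0.24, adjusted p = 0.362).

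SNHG19 was the exception. This short gene on chromosome 16 (GRCh38 chr16:2154797-2155358, minus strand) carries SNORD60. It stood at 29.7 FPKM in both TF1-BA libraries and at 25.6 and 24.0 FPKM in TF1-BAR. Its level decreased by 0.25 on the log2 scale (SE 0.0662, adjusted p = 0.0474), whereas the median of the other genes of chromosome 16 was 0.12. The call was lost with the replicate number as a block, with the rescaling to TPM, by limma voom, without the trend of the spread, without the filter, and when TF1-BA replicate 1, TF1-BA replicate 2 or TF1-BAR replicate 2 was left out. SNHG14, the long transcript of the imprinted SNRPN region that carries 83 annotated C/D snoRNAs, was at 1.30 and 1.13 FPKM in TF1-BA and at 1.19 and 0.992 FPKM in TF1-BAR. Its log2 fold change was -0.11 with a 95% confidence interval of -0.50 to 0.28 (adjusted p = 0.613). UBE3A, a ubiquitin ligase gene that SNHG14 overlaps on the other strand, decreased by 0.64 on the log2 scale (adjusted p = 0.0231).

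GAS5 and SNHG12 carry snoRNAs of both kinds, and both rose. GAS5 (growth arrest-specific 5) holds 11 snoRNAs, 10 of the C/D kind, and its RNA is known to accumulate when growth stops. It was the most abundant gene of the group in TF1-BA, with 88.4 and 92.6 FPKM, and reached 133 and 143 FPKM in TF1-BAR. The log2 fold change was 0.61 (SE 0.0643, limma adjusted p = 0.00724). SNHG12 (SNORD99 and 3 H/ACA snoRNAs) had 11.5 and 12.3 FPKM in TF1-BA and 18.2 and 21.5 FPKM in TF1-BAR, with a log2 fold change of 0.71 (adjusted p = 0.0123). By mean level, GAS5 (90.5 ± 2.96 FPKM), SNHG8 (76.5 ± 6.49) and SNHG1 (70.5 ± 1.53) led the group in TF1-BA (SD, n = 2). In TF1-BAR the order was SNHG1 (157 ± 32.0 FPKM), SNHG8 (141 ± 18.1) and GAS5 (138 ± 6.71), and there the libraries of the 3 genes overlapped.

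Among the 13 tested genes with H/ACA snoRNAs or scaRNAs alone, 8 rose with an adjusted p under 0.05, against 16.3% of all genes. SNHG8 (SNORA24) was at 71.9 and 81.1 FPKM in TF1-BA and at 128 and 154 FPKM in TF1-BAR, with a log2 fold change of 0.88 (adjusted p = 0.0101). EPB41L4A-AS1 (SNORA13) had 10.1 and 9.65 FPKM in TF1-BA and 16.7 and 21.4 FPKM in TF1-BAR, with a log2 fold change of 0.90 (adjusted p = 0.0123). SNHG7 (SNORA17A and SNORA17B) had 16.2 and 18.1 FPKM in TF1-BA and 27.0 and 37.2 FPKM in TF1-BAR, with a log2 fold change of 0.87 (adjusted p = 0.023). In each of these 3 genes TF1-BAR replicate 2 was the highest library. SNHG11 (SNORA60 and SNORA71E), next to SNHG17 on chromosome 20, had 5.85 and 5.15 FPKM in TF1-BA and 7.80 and 11.0 FPKM in TF1-BAR. Its log2 fold change was 0.70 (SE 0.173, adjusted p = 0.0414), with a 95% confidence interval of 0.26 to 1.15 that holds the median of its chromosome, 0.39. The call was lost with upper-quartile scaling, without the trend, with the replicate number as a block, without the filter, and when TF1-BA replicate 1, TF1-BA replicate 2 or TF1-BAR replicate 2 was left out.

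SNHG4, SNHG15 and SNHG3 rose by less, with little spread within each line. SNHG4 (SNORA74A and SNORA74D) had 15.5 and 14.2 FPKM in TF1-BA and 23.0 and 21.9 FPKM in TF1-BAR (log2 fold change 0.58, adjusted p = 0.011). For SNHG15 (SNORA9) the levels were 17.5 and 19.4 FPKM in TF1-BA and 25.7 and 26.9 FPKM in TF1-BAR (log2 fold change 0.50, adjusted p = 0.0148). SNHG3 (SNORA73A and SNORA73B) stood at 27.5 and 27.0 FPKM in TF1-BA and at 34.8 and 34.3 FPKM in TF1-BAR (log2 fold change 0.34, adjusted p = 0.0201). The call of SNHG3 was lost without the trend (limma adjusted p = 0.0537) and that of SNHG15 without the filter (limma adjusted p = 0.0516). DANCR (SNORA26), an RNA known for holding progenitor cells undifferentiated, had 32.3 and 30.6 FPKM in TF1-BA and 33.1 and 35.4 FPKM in TF1-BAR. Its log2 fold change of 0.12 had a 95% confidence interval of -0.06 to 0.30 (adjusted p = 0.25).

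The 3 tested hosts of a scaRNA, SNHG21, SNHG20 and SNHG10, were at low levels and had adjusted p-values over 0.05. SNHG21 (SCARNA15) had 1.26 and 0.860 FPKM in TF1-BA and 1.39 and 1.77 FPKM in TF1-BAR, from 14 to 30 fragments (log2 fold change 0.42, adjusted p = 0.169). SNHG20 (SCARNA16) had 3.16 and 3.21 FPKM against 3.81 and 4.39 FPKM (log2 fold change 0.32, adjusted p = 0.0809). SNHG10 (SCARNA13) had 4.73 and 4.42 FPKM against 5.22 and 5.82 FPKM (log2 fold change 0.24, adjusted p = 0.117). Their 95% confidence intervals reach 0.92, 0.58 and 0.49 on the log2 scale, and that of SNHG21 starts at -0.08. SNHG9 (SNORA78) had only 4 to 8 fragments in each library, 0.469 to 0.805 FPKM, and its groups overlapped (log2 fold change 0.002, adjusted p = 0.996).

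SNHG22 and SNHG18 were below the filter. SNHG22 (SCARNA17) was read with 5 and 5 fragments in TF1-BA and with 3 and 9 in TF1-BAR (0.107, 0.125, 0.0734 and 0.216 FPKM). SNHG18 (SNORD123) had 0 fragments in every library, which allows up to 3 fragments in each, counting error only.

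MALAT1 and NEAT1, neighbours on chromosome 11 that carry no annotated snoRNA, were both above TF1-BA in both TF1-BAR libraries. MALAT1 rose from 16.9 and 16.2 FPKM in TF1-BA to 23.7 and 23.3 FPKM in TF1-BAR, with a log2 fold change of 0.49 (SE 0.065, limma adjusted p = 0.0108). NEAT1 had 10.7 and 12.0 FPKM in TF1-BA and 15.0 and 12.9 FPKM in TF1-BAR, with a log2 fold change of 0.29 (SE 0.107, adjusted p = 0.107), and it passed with limma voom on recovered fragments (adjusted p = 0.0162). The interval of NEAT1, 0.01 to 0.56, holds the estimate of MALAT1, and the difference between the genes was not tested. NEAT1 is also a long gene, measured over 22767 bases and with 4215 to 5383 fragments per library.

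The higher genes were not confined to 1 chromosome. Of the 26 tested genes, 23 lay above the median of their own chromosome, and the 3 others were SNHG9, SNHG14 and SNHG19. Without the 3 genes of chromosome 20 (SNHG17, ZFAS1 and SNHG11), 13 of 23 were higher at an adjusted p under 0.05. Of all genes tested, 16.3% were, and the median log2 fold change of the 23 was 0.49. Hosts of C/D snoRNAs alone numbered 8 (4 higher, median 0.42), hosts of H/ACA snoRNAs or scaRNAs alone 13 (8 higher, median 0.50), and hosts of both kinds 2 (2 higher, median 0.66). These counts stand beside the same 16.3% of all genes, and no test of the kinds against each other was made. 18 of the 26 genes were higher in TF1-BAR replicate 2 than in replicate 1, as were 55.2% of all genes tested, and 10 were higher in TF1-BA replicate 2 than in replicate 1, as were 46.3% of all genes.

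The snoRNAs inside the hosts were measured poorly in these libraries. Libraries made for messenger RNA retain few molecules as short as a snoRNA, so these values are a description only. The table lists 35 snoRNA genes inside 12 of the host genes. SNHG14 holds 19 of them, none with more than 6 fragments in a library. Over the other 16, fragments summed to 201 and 199 in TF1-BA and to 203 and 223 in TF1-BAR. SNORD12B, inside ZFAS1, is shown as an example of what the intron carries (GRCh38 chr20:49280319-49280409, plus strand). Capitals mark CTGA, the D box of its kind, and the ends of the printed sequence pair with each other.
SNORD12B: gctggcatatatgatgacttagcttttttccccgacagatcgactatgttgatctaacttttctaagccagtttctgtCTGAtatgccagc
Its 29 and 33 fragments in TF1-BA stood against 23 and 31 in TF1-BAR (log2 fold change -0.14, adjusted p = 0.613), while the host ZFAS1 rose. SNORA73B, inside SNHG3, had 71 and 60 fragments in TF1-BA and 58 and 47 in TF1-BAR (log2 fold change -0.25, adjusted p = 0.19). Inside SNHG17, SNORA71C had 27 and 25 fragments against 27 and 42 (log2 fold change 0.43, adjusted p = 0.175) and SNORA71B had 27 and 16 against 21 and 33 (log2 fold change 0.38, adjusted p = 0.309). SNORA60, inside SNHG11, had 7 and 9 fragments against 15 and 21, and it was higher (log2 fold change 1.12, adjusted p = 0.0263). SNORA74D, inside SNHG4, had 2 and 3 fragments against 0 and 0, at or under the floor of 3, so no fold is given.

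The kit does not mark strand, so the reads of a host and of a gene that overlaps it on the other strand cannot be told apart. Such overlaps numbered 18 in 13 of the genes. FAM69B, which SNHG7 overlaps, rose by a log2 fold change of 0.63 (adjusted p = 0.011), and EPB41L4A, which EPB41L4A-AS1 overlaps, by 0.70 (adjusted p = 0.0421) from 57 to 152 fragments. ZNFX1, which overlaps the start of ZFAS1, rose by 0.39 (adjusted p = 0.029). Partners of other hosts had negative values. GLRX5, which SNHG10 overlaps, decreased by 0.40 on the log2 scale (adjusted p = 0.0145), ZBTB37 at the start of GAS5 had a log2 fold change of -0.18 (adjusted p = 0.334), and TRNAU1AP at SNHG12 had -0.05 (adjusted p = 0.734). On the same strand, MATR3 (0.50, adjusted p = 0.0204) overlaps SNHG4, SEC14L1 (0.35, adjusted p = 0.0304) overlaps SNHG20, and RCC1 (0.12, adjusted p = 0.363) overlaps SNHG3, and the counting could have split reads between them.

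Of the starts of the hosts, RefSeq promoters (GRCh38.p14) were found for 24 of the 28 genes. A C followed by at least 4 bases that are each C or T lay within 5 bases of the annotated start, on the gene's strand, in 13 of 24 (54.2%), against 21.1% of 35116 promoters. The base at the annotated start was itself a C followed by at least 4 such bases in 6 of 24 (25.0%), against 4.07% of promoters, although in SNHG12 and SNHG18 the run begins 1 base earlier. The windows of 30 bases hold 10 bases before the start and 20 from it. Capitals mark the C and T run, counted from its first C within 5 bases of the start. In MIR17HG the run begins 1 base before the capitals. The first 5 are the tested genes with the run across the start, and the last 3 are the genes that passed both thresholds.
ZFAS1: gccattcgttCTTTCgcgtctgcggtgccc
SNHG12: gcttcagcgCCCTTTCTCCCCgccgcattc
SNHG5: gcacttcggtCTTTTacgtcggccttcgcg
SNHG4: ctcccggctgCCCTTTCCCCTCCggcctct
SNHG19: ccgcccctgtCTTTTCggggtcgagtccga
MIR17HG: gccgcCCTTCattcacccacatggtccttc
SNHG17: gtgtggcctcagtCCTTCgccgtccctcgc
SNHG1: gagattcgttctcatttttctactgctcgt
ZFAS1, SNHG12, SNHG5 and SNHG4 rose and SNHG19 fell, so genes with the run across the start moved in both directions. In SNHG1 the letters were not in the window. The annotated start was 3, 1 and 0 bases from the start in the deposited table for SNHG5, SNHG4 and SNHG19, and 464 and 1110 bases from it for ZFAS1 and SNHG12. Of the 12 tested genes with the run within 5 bases, 9 were higher at an adjusted p under 0.05 (median log2 fold change 0.66). Of the 10 without it, 5 were higher (median 0.38), and of all genes tested 16.3% were. The difference was not tested, and the classes depend on the annotated start used. For GAS5, counted as without the run, that start lay 163 bases from the deposited one. The E-box CACGTG, which MYC proteins bind and which reads the same on both strands, was found in the promoter of SNHG7 and of no other of the 24 genes (4.17%), against 7.26% of promoters. These matches are descriptions of letters, and no binding was measured.

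The lists of proteins that build snoRNPs had median log2 fold changes of -0.01 (core) and -0.13 (assembly), against 0.07 over all genes. Over the alternatives the first ranged from -0.10 to 0.06 and the second from -0.22 to 0.02. Of the 8 snoRNP core proteins, NOP56, of the C/D particle, was higher (27.1 and 27.2 FPKM in TF1-BA, 38.6 and 37.2 in TF1-BAR, log2 fold change 0.47, adjusted p = 0.0101). It lies on chromosome 20, with the median of 0.39 given above. NOP10, of the H/ACA particle, decreased by 0.35 on the log2 scale (adjusted p = 0.0493), a call lost with the TPM and quantile scalings, without the filter, without the trend, with GC, length and level trends removed, without either TF1-BA library and without TF1-BAR replicate 1, and the other 6 did not pass. Of 10 snoRNP assembly factors, NOLC1 decreased by 0.83 (115 and 113 FPKM against 71.6 and 57.1, adjusted p = 0.0118). RUVBL2 decreased by 0.44 (adjusted p = 0.0115), and 8 did not pass. The call of NOLC1 was lost without the filter (limma adjusted p = 0.0577). Beside both lists, 16.3% of all genes tested were higher and 10.5% lower at an adjusted p under 0.05. NOLC1 lies on chromosome 10, where the median log2 fold change of 593 tested genes was -0.35. Among 31 protein-coding hosts of snoRNAs, 7 were higher (16.3% of all genes were), led by TPT1 (0.59, adjusted p = 0.00981) and PPAN (0.48, adjusted p = 0.0312), and CWF19L1, also on chromosome 10, decreased by 0.51 (adjusted p = 0.0307), a call lost without the filter, without the trend, with the replicate block and whichever library was left out. PPAN lost its call without the filter, with quantile normalization and whichever library was left out. The 7 became 4 without the filter or without TF1-BAR replicate 2, and 13 with GC, length and level trends removed. Their median log2 fold change was 0.12, against 0.58 for the 23 tested noncoding hosts.

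Messenger RNAs with a TOP motif other than those of ribosomal proteins were also compared. Of 19 tested, 8 were higher at an adjusted p under 0.05 (median log2 fold change 0.23), against 16.3% of all genes, with TPT1 and EIF3F (0.45, adjusted p = 0.026), a subunit of an initiation factor, the largest. That count was 6 to 12 under the other scalings, 3 without the trend or the filter, 2 without TF1-BAR replicate 2 and 14 with GC, length and level trends removed. Of 15 factors of nonsense-mediated decay, 4 were higher, against 16.3% of all genes, led by SMG8 (0.68, adjusted p = 0.0101) and SMG5 (0.55, adjusted p = 0.0119). That count was 0 by limma without TF1-BAR replicate 2 (adjusted p = 0.05 for SMG8 and 0.0505 for SMG5), 3 without the filter or the trend and 7 with limma voom. EIF4A3, of the exon junction complex, decreased by 0.63 on the log2 scale (17.3 and 16.9 FPKM against 10.9 and 10.9, adjusted p = 0.00714). UPF1, the central helicase of the pathway, had 20.8 and 20.1 FPKM in TF1-BA and 19.9 and 20.6 FPKM in TF1-BAR (log2 fold change -0.01, adjusted p = 0.918), and it is named here after its values were seen. The list median was 0.21.

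Paraspeckle proteins moved in both directions. NONO (0.26, adjusted p = 0.0326) was higher, though it did not pass with upper-quartile scaling, without the filter, without the trend or whichever library was left out. PSPC1 decreased by 0.70 on the log2 scale (18.1 and 17.5 FPKM against 11.2 and 10.3, adjusted p = 0.0075), RBM14 by 0.42 (adjusted p = 0.0293) and HNRNPH3, named after its values were seen, by 0.36 (adjusted p = 0.0392). The calls of RBM14 and HNRNPH3 were lost without the filter and without the trend. That of HNRNPH3 was also lost with the TPM scaling and with GC, length and level trends removed. Of the 11 tested, 2 were higher, 3 were lower and 6 did not pass, against 16.3% higher and 10.5% lower of all genes. Of 9 nuclear speckle proteins, SRRM1 (0.39, adjusted p = 0.0166) and PNN (0.36, adjusted p = 0.0266) were higher and 7 did not pass, a share near the 16.3% of all genes. The call of PNN was lost with upper-quartile scaling, without the filter, without the trend and whichever library was left out.

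Of the transcription factors known to act on the MIR17HG promoter, 5 were looked up, and their part in MIR17HG levels was not tested. All were higher in TF1-BAR, and 16.3% of all genes tested were higher at an adjusted p under 0.05. All 5 passed at an adjusted p under 0.05, but 4 with upper-quartile scaling or without TF1-BAR replicate 1, 3 without the trend, 2 without the filter and 1 without TF1-BAR replicate 2. Without TF1-BA replicate 1, none of the 120 tested genes of the 10 partner lists, these 5 included, passed by limma (37 had an unadjusted p under 0.05), and without TF1-BA replicate 2 again none did (31 unadjusted). Of the 26 genes of these lists that are named here as higher or lower, 7 passed in every setting that kept both TF1-BA libraries: NOP56, RUVBL2, TPT1, EIF4A3, PSPC1, SRRM1 and E2F1. MYCN had 0.618 and 0.870 FPKM in TF1-BA and 2.61 and 3.08 FPKM in TF1-BAR (29 and 35 against 107 and 129 fragments), a log2 fold change of 1.43 (SE 0.163, limma adjusted p = 0.00828). It alone of the 5 also passed the fold threshold, and the study had picked it out in these libraries, so it is no independent evidence of direction. E2F1, which drives entry into S phase, had 11.9 and 12.1 FPKM in TF1-BA and 19.6 and 22.9 FPKM in TF1-BAR (log2 fold change 0.79, adjusted p = 0.00891) and also lies on chromosome 20, and E2F2 followed with 0.72 (adjusted p = 0.0299). E2F2, MYC and E2F3 are named after their values were seen. MYC was far more abundant, at 198 and 168 FPKM in TF1-BA and 242 and 256 FPKM in TF1-BAR (log2 fold change 0.45, adjusted p = 0.0292), and E2F3 had 0.39 (adjusted p = 0.0206).

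Known targets of the microRNAs printed above were also looked up. TGFBR2, a receptor of transforming growth factor beta, had 9.26 and 10.0 FPKM in TF1-BA and 13 and 14.9 FPKM in TF1-BAR and was higher (log2 fold change 0.51, adjusted p = 0.0219). BCL2L11, CDKN1A, THBS1 and BMPR2, named after their values were seen, did not pass, with log2 fold changes of -0.30 to -0.03, and the microRNAs' part in these values was not tested.

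Other genes named as microRNA hosts numbered 40 in the table, and 12 of them could be tested. At an adjusted p under 0.05, 1 was higher and 2 were lower, against 16.3% and 10.5% of all genes tested. MIR3945HG was higher (0.843 and 1.05 FPKM against 1.93 and 2.08, log2 fold change 0.80, adjusted p = 0.0198), from 15 to 33 fragments, a call lost without the filter and whichever library was left out. MIR503HG decreased by 0.65 on the log2 scale (adjusted p = 0.0426) and MIR222HG by 0.38 (adjusted p = 0.0442), calls that were both lost with the TPM scaling, without the filter, without the trend and whichever library was left out, and the other 9 did not pass. That of MIR222HG was also lost with the replicate block and with GC, length and level trends removed.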

How the data were processed

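The authors sequenced RNA of TF1-BA and TF1-BAR cells as paired-end reads on an Illumina platform and, per the labels, aligned them to GRCh38 with TopHat2 2.0.13 and quantified them with Cufflinks and Cuffdiff 2.2.0. They tested with DESeq2. The deposited values are FPKM per gene and library, not log-transformed, and which annotation release supplied the gene models is not given in the sources used here. FPKM depends on the gene models used and on the share of other RNA, such as mitochondrial transcripts, in a library. Samples were grouped by the cell line name in their labels.

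On log2(FPKM + 0.5), limma 3.58.1 (R 4.3.3) was fitted by lmFit, then eBayes with its trend option, which lets the spread vary with expression, over 15519 genes with a mean of at least 0.5 FPKM, two-sided, with Benjamini-Hochberg adjustment. Genes were called differentially expressed when the adjusted p was under 0.05 and the log2 fold change was 1 or more in either direction. The log2(FPKM + 0.5) scale understates the change of low genes. Whole fragments were recovered from the FPKM, and all 30853 genes above 0 were whole within 0.001 in the 4 libraries. Of these, 14220 were whole at the exon length of GENCODE 44 and 16633 at a fitted length, the shortest that gave whole fragments. Wholeness is therefore no check of the fitted genes, and their fragments may be too few by a common factor. With wrong library sizes 0 of 300 genes were whole, and these 300 were all taken from the exon-length genes. The fragments cover counting error only. Sequences were taken from RefSeq tables (GRCh38.p14) and the GRCh38 genome. The method was tested on simulated data with the same spread setting for every gene and both lines. Such a test cannot check how the method handles the spread of the real libraries.

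The genes and lists were chosen with earlier results of these data known. Named are all 28 genes, the snoRNA, overlapping and adjacent genes found by coordinates, and in each list the genes past both thresholds and up to 2 in each direction with the largest change at an adjusted p under 0.05. Some genes of the lists are not reported here. Alternatives were other pseudocounts, filters and scalings, no trend, the replicate number as a block, each library left out, limma voom on recovered fragments, and removal of GC, length and level trends (chosen after seeing the data).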

Additional observations from a re-analysis of the deposited data

How the results depend on the processing

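The 3 genes past both thresholds and the 17 with an adjusted p under 0.05 were counted again under 15 alternatives. Counts of 3 and 16 to 17 were found with pseudocounts of 1 or 0.1 FPKM, a filter at 1 FPKM, the 3 other scalings and limma voom, and 3 and 13 without the trend. With no filter 1 and 7 genes passed, with 30853 genes tested. Calls at an adjusted p under 0.05 were then lost for SNHG1, SNHG5, SNHG7, SNHG8, SNHG11, SNHG12, SNHG15, SNHG17, SNHG19 and EPB41L4A-AS1. Leaving out 1 library gave 0 to 6 and 0 to 16, and the lone library of a line is then assumed to vary like the other line. The replicate numbers are not shown to pair the libraries (correlation of the deviations of same-numbered libraries 0.0646 over 15519 genes). With them as a replicate block 3 and 15 passed, with SNHG11 and SNHG19 lost, and 755 of all genes against 737. With the GC, length and level trend removed, 4 and 17 passed, with SNHG8 added. Over all genes, 737 passed both thresholds (64.3% higher), against 487 with 1 FPKM added, 1139 with voom, and 42 to 783 with a library left out. Quantile normalization gave 359 higher and 338 lower. At an adjusted p under 0.05 alone, 4167 genes passed, against 1446 with no filter and 42 to 3176 with a library left out. The cause of these shifts was not tested. SNHG9, at 4 to 8 fragments, changed sign from 0.002, with log2 fold changes of 0.216 at most (without TF1-BA replicate 1) and of -0.002 (1 FPKM added), -0.05 (upper quartile), -0.149 (quantile), -0.213 (without TF1-BA replicate 2), -0.079 (without TF1-BAR replicate 1), -0.001 (voom) and -0.126 (trend removed). Low fragment numbers limit SNHG9, SNHG18, SNHG21 and SNHG22.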
